A study of Mus musculus with 15 samples.

Results

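The levels of 10 genes of bile acid synthesis, conjugation and transport were followed in mouse liver by expression array: the hydroxylase genes Cyp7a1, Cyp8b1, Cyp27a1 and Cyp7b1, the conjugating enzyme gene Baat, the uptake carrier genes Slc10a1 and Slco1a1, the canalicular exporter genes Abcb11 and Abcc2, and the repressor gene Nr0b2. The genes were chosen by name, with earlier results of these data known. Every probe set annotated to one of them and to no other gene was taken. The 10 genes were measured by 17 probe sets, out of 34945 that carried a single gene symbol (18193 symbols). A probe set is a group of short probes whose signals are summarised into one log2 value, so that a difference of 1 is a doubling. A probe set entered the tests if it reached a log2 value of 4 on at least 3 of the 15 arrays, since values under 4 lay near background. All 10 genes and 15 of their 17 probe sets did so. The exceptions were a further probe set for Cyp27a1 (1457665_x_at), at 1.54 to 2.35 on all arrays, and one for Cyp7b1 (1446995_at), at 1.64 to 2.17.

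Bile acids are made from cholesterol in hepatocytes. In the classic route Cyp7a1 catalyses the first and rate-limiting step, and in the alternative route Cyp27a1 and Cyp7b1 hydroxylate the sterol side chain and ring. The acids are joined to taurine, pumped into the bile canaliculus, reabsorbed in the gut and taken up again from portal blood. Bile acids returning to the liver activate the nuclear receptor FXR (Nr1h4), which induces the repressor SHP, encoded by Nr0b2. SHP and an intestinal hormone, Fgf15 in the mouse, lower transcription of Cyp7a1, and gut bacteria alter the bile acid pool by deconjugating and dehydroxylating it.

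Each array held liver RNA of a mouse aged 15 weeks. Arrays 1 to 3 came from untreated wild-type mice of strain C3H/HeOuJ, and arrays 4 to 7 from mice of this strain given the liver carcinogen diethylnitrosamine (DEN, 100 mg/kg) at 12 weeks and carbon tetrachloride (CCl4, 0.50 ml/kg), which injures hepatocytes around the central vein, at 13 and 15 weeks. Arrays 8 to 11 came from equally treated C3H/HeJ mice, which carry the Tlr4P712H mutation in the receptor for bacterial lipopolysaccharide. Arrays 12 to 15 came from equally treated C3H/HeOuJ mice that had drunk ampicillin, neomycin and metronidazole (1 g/l each) and vancomycin (500 mg/l) for 2 weeks from the age of 10 weeks. Livers of treated mice were taken 48 hours after the last CCl4 dose. The mice were labelled male, except that array 8 carried no sex. Mutation and strain cannot be told apart, because the mutant mice were the only C3H/HeJ mice, and no untreated mutant mice or mice given antibiotics without DEN and CCl4 were among the samples. The labels call the arrays separate samples but do not say whether each came from its own animal, and p-values measure the spread between them.

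The hepatocyte marker genes were abundant in every group: none of 9 lay under 4, and their summed linear level ran from 155100 to 187600. Markers of other cells moved with the groups. The summed level of 8 macrophage genes was 663.5 to 1863 on untreated arrays, 4418 to 7048 in treated wild type, 877.4 to 1267 in treated mutants and 2008 to 4331 in the antibiotic group. That of 6 stellate cell genes was 484.1 to 1067, 6098 to 7228, 1503 to 2354 and 2498 to 4263. Among them Cd68 lay under 4 on all untreated arrays, Clec4f on all mutant arrays, and Col1a1 on untreated arrays. The 4 T cell and 3 B cell genes measured lay under 4 in every group. Arrays of a group correlated with each other at r = 0.976 to 0.993, and none was left out.

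For 7 of the 10 genes the 250 bases before the annotated start were at hand from RefSeq (assembly GRCm38.p6), and 3 promoters are printed, those of the repressor that rose in mutant and antibiotic arrays, of the bile salt pump, and of the carrier with the largest fall. Capitals mark matches to short motifs. These were TCAAGG, the core of the site of the nuclear receptor LRH-1 (Nr5a2); AGGTCA, a nuclear receptor half-site; the inverted repeat bound by FXR with its partner RXR (GGTCA, then any base, then TGACC, with 1 mismatch allowed); and TATAAA, the TATA box, searched on the sense strand only. The other motifs were searched on both strands. Among 32851 promoter windows of this length, 12.5% held TCAAGG, 14.02% AGGTCA, 0.624% the inverted repeat and 7.59% TATAAA. Nr0b2 (chr4:133553126-133553375, plus strand) held TCAAGG at 68 to 63 and at 35 to 30 bases before the start and TATAAA at 28 to 23. Abcb11 (chr2:69342617-69342866, minus strand) held an inverted repeat with 1 mismatch (GGCCATTGACC) at 62 to 52, overlapping a reverse-strand AGGTCA at 56 to 51. Slco1a1 (chr6:141946963-141947212, minus strand) held AGGTCA at 24 to 19 and, on the reverse strand, at 134 to 129.
Nr0b2: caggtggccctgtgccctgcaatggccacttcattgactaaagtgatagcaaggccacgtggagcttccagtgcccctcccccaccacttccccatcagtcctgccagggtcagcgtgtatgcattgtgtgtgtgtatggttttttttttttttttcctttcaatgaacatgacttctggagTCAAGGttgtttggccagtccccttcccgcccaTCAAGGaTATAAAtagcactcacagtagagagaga
Abcb11: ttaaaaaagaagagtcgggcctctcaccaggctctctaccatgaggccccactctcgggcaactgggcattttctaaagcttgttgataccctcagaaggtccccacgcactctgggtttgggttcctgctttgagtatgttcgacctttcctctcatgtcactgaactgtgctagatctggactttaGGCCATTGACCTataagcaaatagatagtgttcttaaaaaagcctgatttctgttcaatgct
Slco1a1: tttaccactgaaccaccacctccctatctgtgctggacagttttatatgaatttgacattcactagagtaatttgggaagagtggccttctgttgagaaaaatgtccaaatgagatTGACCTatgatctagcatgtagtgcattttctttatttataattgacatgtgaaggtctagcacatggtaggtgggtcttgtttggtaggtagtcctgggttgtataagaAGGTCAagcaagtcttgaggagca
A match is a description of the letters and not a measured binding site. In the other promoters at hand, the gene-proximal 250 bases held AGGTCA in Abcc2 and in one of the windows of Slc10a1, TATAAA in Cyp8b1, and none of these motifs in Cyp27a1.

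The first comparison, of treated with untreated wild-type liver, asks what the carcinogen and toxin did to these genes. Of the 10 genes, each counted by its brightest probe set, 8 fell and none rose: all 4 hydroxylases, Baat, both uptake carriers and Abcb11. Abcc2 and Nr0b2 did not pass the test. Of all 9482 genes tested, 26.3% were lower and 35.5% higher (61.8% either way). The median log2 difference was -1.69 over the 10 genes and 0.10 over all genes. A gene was called at a Benjamini-Hochberg adjusted p under 0.05 in limma, taken over all probe sets. In whole liver, fewer cells expressing a gene and less RNA per cell cannot be told apart.

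Among the hydroxylases, Cyp7a1 stood at 11.34, 11.28 and 11.73 on the untreated arrays and at 8.42, 9.39, 8.15 and 9.96 on the treated wild-type arrays (probe set 1438743_at). Every treated array lay below every untreated one, and the treated arrays spread far more widely. The difference was -2.47 ± 0.56 (SE; adjusted p = 0.00146), a 5.54-fold fall, and the dimmer probe set gave -2.57 ± 0.47 (adjusted p = 0.000252). Cyp8b1, the hydroxylase that directs synthesis toward cholic acid, stood at 11.49, 11.54 and 11.33 in untreated and at 8.50, 9.84, 9.09 and 9.95 in treated liver. It fell 4.30-fold (-2.10 ± 0.62, adjusted p = 0.00882), again with no overlap.

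The alternative route fell as well. Cyp27a1, a mitochondrial sterol hydroxylase, was tight within both groups, at 11.86, 11.92 and 12.14 against 9.72, 9.67, 9.53 and 9.74. Its 4.96-fold fall (-2.31 ± 0.19, adjusted p = 1.14e-07) had the smallest p of the 10 genes. Cyp7b1, the oxysterol hydroxylase, stood at 14.09, 13.63 and 13.72 against 11.83, 12.14, 12.39 and 12.27, a 3.15-fold fall (-1.66 ± 0.28, adjusted p = 0.00013), with -1.73 ± 0.25 from its second probe set. Untreated and treated arrays did not overlap for either gene.

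Baat, which joins bile acids to taurine, stood at 11.06, 11.06 and 11.26 in untreated liver and at 9.54, 9.99, 10.15 and 9.98 in treated liver. It fell 2.32-fold (-1.21 ± 0.21, adjusted p = 0.000144), the smallest of the 8 falls. Its dimmer probe set gave -1.43 ± 0.25.

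Of the uptake carriers, Slco1a1, a sodium-independent organic anion transporter of the sinusoidal membrane, changed most. Its level was 12.08, 11.98 and 12.10 on untreated arrays and 7.40, 6.34, 8.68 and 6.63 on treated wild-type arrays. The fall was 27.8-fold (-4.79 ± 0.66, adjusted p = 2.21e-05), and 19.9-fold by the second probe set (-4.32 ± 0.61). Slc10a1, the sodium-dependent carrier that takes up most conjugated bile acids, stood at 13.06, 13.22 and 13.30 against 11.18, 11.48, 12.01 and 11.88. It fell 2.94-fold (-1.56 ± 0.21, adjusted p = 1.99e-05), and 3.80-fold by its second probe set. Neither carrier's groups overlapped.

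The canalicular exporters differed from each other. Abcb11, the bile salt export pump, stood at 11.80, 11.76 and 11.58 in untreated liver and at 10.27, 9.45, 10.44 and 9.77 in treated liver, a 3.32-fold fall (-1.73 ± 0.23, adjusted p = 1.77e-05). Abcc2, which exports conjugated organic anions such as bilirubin glucuronides, stood at 11.78, 11.74 and 11.67 against 11.85, 12.09, 11.88 and 12.07. The treated arrays all lay above the untreated ones, but the difference of 0.24 ± 0.12 missed the threshold (adjusted p = 0.0922). It passed after quantile normalisation (0.30, adjusted p = 0.0414) and when limma weighted the arrays by their scatter (array weights; 0.30, adjusted p = 0.00909), and was 0.01 (adjusted p = 0.942) when each array was centred on its median. Nr0b2 stood at 6.93, 6.26 and 7.59 against 6.43, 6.44, 7.64 and 5.80, and the difference of -0.35 ± 0.39 was within the spread of arrays (adjusted p = 0.457; 95% interval -1.18 to 0.48).

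The 8 falls held under all 27 alternative settings run, each single array left out included. Beside them, 3 of the 9 hepatocyte markers were lower (median -0.11), while 7 of 8 macrophage and 5 of 5 tested stellate cell markers were higher. A list of genes of hepatocytes around the central vein, the zone where Cyp7a1 is mainly expressed, was lower for 9 of 9 tested members (median -2.56), against 4 lower and 2 higher of 10 periportal genes. The part of cell makeup and zone in the falls was not tested.

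**Figure D1:**
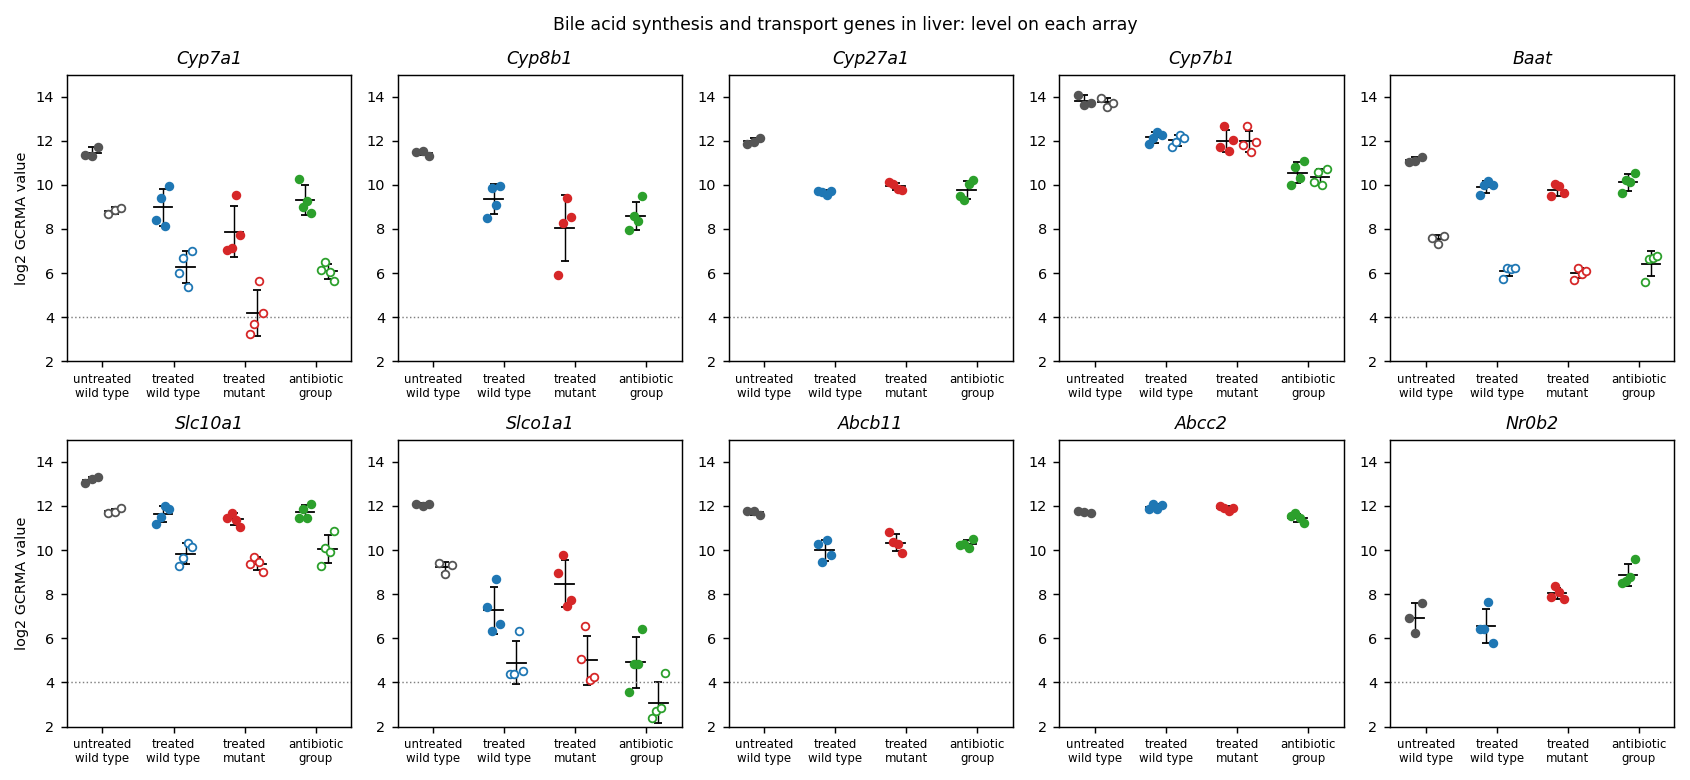
Log2 level (vertical axis) on each of the 15 arrays for the 10 genes, by group; filled circles are the brightest probe set, open circles a second one, and bars the mean with 1 SD. The dotted line marks 4. Untreated arrays sit above all others of the same probe set for the 8 genes that fell. In the antibiotic group Slco1a1 goes down to 3.56 by its brightest probe set and to 2.40 by the second.

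The second comparison, of treated Tlr4P712H mutants with treated wild type, asks how the response differs where the lipopolysaccharide receptor is mutated. Counted by the brightest probe set, 1 gene of 10 was higher, Nr0b2, and none was lower. Of all genes 12.6% were higher and 17.3% lower (29.8% either way), and the median difference was -0.11 over the 10 genes and 0.02 over all.

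Nr0b2 stood at 7.87, 8.38, 8.09 and 7.79 on the mutant arrays. All 4 lay above the treated wild-type arrays, the highest of which was at 7.64, and the rise was 2.74-fold (1.46 ± 0.36, adjusted p = 0.00773). It held under all 27 alternatives.

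The classic route gave mixed calls in the mutants. Cyp7a1 stood at 7.04, 7.14, 9.53 and 7.75 on the mutant arrays by its brighter probe set, and array 10, at 9.53, lay inside the wild-type range. The difference was -1.12 ± 0.52 and missed the threshold (adjusted p = 0.12; 95% interval -2.22 to -0.02). The dimmer probe set stood at 3.25, 3.68, 5.64 and 4.21 against 5.996, 6.68, 5.37 and 7.01 and was lower (-2.07 ± 0.43, adjusted p = 0.00265). With the 2 mutant arrays under 4 set to 4, that was at least 3.48-fold. The mean of both probe sets gave -1.59 (adjusted p = 0.0172), and without array 10 the brighter one gave -1.67 (adjusted p = 0.00862).

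Cyp8b1 stood at 5.90, 8.28, 9.39 and 8.56 in the mutants, a difference of -1.31 ± 0.57 (adjusted p = 0.101; 95% interval -2.54 to -0.09). Array 8 was the lowest and array 10 the highest. Without array 10 the difference was -1.77 (adjusted p = 0.0276), and without array 8 it shrank to -0.60 and was not called. With array weights Cyp7a1 (-1.63, adjusted p = 0.0153) and Cyp8b1 (-1.50, adjusted p = 0.0196) passed as well. The calls of both genes therefore turned on array 10 and on the weighting of arrays, and that of Cyp7a1 also on the probe set.

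The remaining genes did not pass. Slco1a1 stood at 8.97, 9.77, 7.47 and 7.74, above the wild-type median of 7.01 on every array, with a difference of 1.22 ± 0.61 (adjusted p = 0.154) that passed only with array weights (1.58, adjusted p = 0.0351). Its second probe set showed 0.10 ± 0.56, so the pair of probe sets did not show the same size. Cyp27a1 stood at 10.12, 10.02, 9.82 and 9.75, all above the wild-type arrays, yet by only 0.26 ± 0.17 (adjusted p = 0.278). The 95% intervals were -0.72 to 0.38 for Cyp7b1, -0.55 to 0.26 for Baat, -0.66 to 0.18 for Slc10a1, -0.11 to 0.81 for Abcb11 and -0.31 to 0.16 for Abcc2. Beside these values, 7 of 8 macrophage, 5 of 5 stellate and 3 of 3 endothelial markers were lower in the mutants and 0 of 9 hepatocyte markers passed the test; their part in the differences was not tested.

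The third comparison, of the antibiotic group with treated wild type, asks what antibiotics in the drinking water before the DEN dose changed. It shares the 4 treated wild-type arrays with the mutant comparison, so the values of both move together with those arrays. Of the 10 genes, 1 was higher (Nr0b2) and 3 were lower (Cyp7b1, Slco1a1 and Abcc2). Of all genes 4.58% were higher and 8.42% lower (13.0% either way), and the medians were 0.09 over the 10 genes and -0.03 over all.

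Nr0b2 reached its highest levels here, at 8.51, 8.61, 8.78 and 9.60, 4.93-fold above treated wild type (2.30 ± 0.36, adjusted p = 0.00205) with no overlap. Cyp7b1 stood at 10.00, 10.81, 10.31 and 11.08, below every other array of the study. Against treated wild type it was 3.04-fold lower (-1.61 ± 0.26, adjusted p = 0.00231), and 3.16-fold by its second probe set (-1.66 ± 0.23, adjusted p = 0.00102). The calls of Nr0b2 and Cyp7b1 held under all alternatives run.

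Slco1a1 stood at 3.56, 4.83, 4.82 and 6.41, with the last array inside the wild-type range of 6.34 to 8.68 and the first under 4. It was at least 4.75-fold lower (-2.36 ± 0.61, adjusted p = 0.0229). The call was lost without array 4 (-2.31, adjusted p = 0.0501), array 6 (-1.89, adjusted p = 0.0641), array 12 (-1.91, adjusted p = 0.071) or array 14 (-2.33, adjusted p = 0.0502). The second probe set of Slco1a1 stood at 2.40, 2.68, 2.85 and 4.42, under 4 on 3 arrays, and its -1.81 ± 0.56 (adjusted p = 0.0497) lost its call in 19 of 25 alternatives, and was -0.79 with values under 4 set to 4.

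Abcc2 stood at 11.54, 11.67, 11.46 and 11.23, all below the treated wild-type arrays, a small fall of 1.41-fold (-0.50 ± 0.11, adjusted p = 0.0111). Cyp7a1, at 10.24, 9.005, 9.29 and 8.70, did not pass (0.33 ± 0.52, adjusted p = 0.729; 95% interval -0.77 to 1.43), and neither did Cyp8b1, at 7.96, 8.58, 8.37 and 9.48 (-0.75 ± 0.57, adjusted p = 0.431; 95% interval -1.97 to 0.47). The 95% intervals were -0.27 to 0.47 for Cyp27a1, -0.21 to 0.61 for Baat, -0.33 to 0.51 for Slc10a1 and -0.17 to 0.75 for Abcb11. Of the markers, 7 of 8 macrophage and 3 of 5 stellate genes were lower and 0 of 9 hepatocyte genes passed; their part in the differences was not tested.

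**Figure D2:**
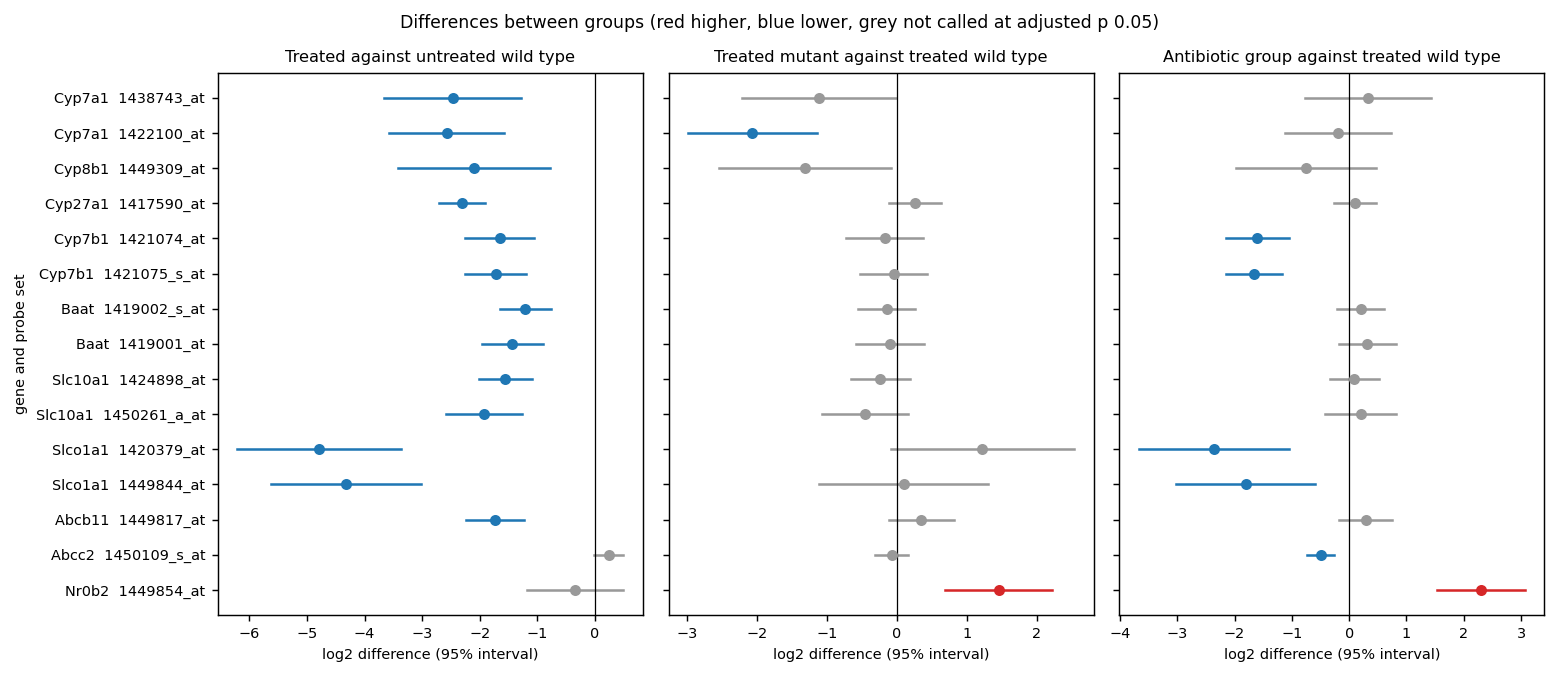
Log2 difference (horizontal axis) with its 95% interval for the 15 tested probe sets in 3 comparisons, coloured by call. The left panel shows 8 genes lower, the middle one Nr0b2 higher and the dimmer Cyp7a1 probe set lower, and the right one Nr0b2 higher with Cyp7b1, Slco1a1 and Abcc2 lower.

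Setting the antibiotic group directly against the mutants, 3 genes were lower and none higher (background 4.93% lower, 6.39% higher, 11.3% either way). Beside them 7 of 8 macrophage, 3 of 5 stellate and 3 of 3 endothelial markers were higher, and their part in the differences was not tested. Cyp7b1 differed by -1.43 ± 0.26 (adjusted p = 0.00326). Slco1a1 was at least 11.1-fold lower by its brighter probe set (-3.58 ± 0.61, adjusted p = 0.00262), with no overlap of arrays. Its dimmer probe set gave -1.91 ± 0.56 (adjusted p = 0.0442), at least 1.85-fold. There the groups overlapped, 3 antibiotic arrays lay under 4, and the call was lost in 15 of 25 alternatives. Abcc2 differed by -0.42 ± 0.11 (adjusted p = 0.0244), a call that was lost without any one of arrays 8, 9, 11, 14 and 15 (adjusted p = 0.0562 to 0.071).

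Nr0b2 was higher on every antibiotic array than on every mutant array, but the difference of 0.85 ± 0.36 did not pass (adjusted p = 0.148). For Cyp7a1 the brighter probe set gave 1.45 ± 0.52 (adjusted p = 0.0868) and the dimmer one, at least 3.05-fold higher, 1.88 ± 0.43 (adjusted p = 0.0139). Without array 10 the brighter probe set of Cyp7a1 passed too (2.00, adjusted p = 0.00856).

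Against untreated wild type, the genes that fell in treated wild type were also lower in both other groups. In the mutants 8 of 10 were lower and 1 higher (all genes 21.1% lower, 32.1% higher, 53.2% either way), and in the antibiotic group also 8 lower and 1 higher (all genes 24.1%, 34.0% and 58.1%). These comparisons share the 3 untreated arrays. In the mutants 5 of 8 macrophage markers were lower than in untreated liver and 1 was higher (median -1.17). In the antibiotic group 4 of the 8 were higher and 0 lower. Of 5 stellate markers 4 were higher in the mutants and 5 in the antibiotic group. Of 9 hepatocyte markers 1 and 2 were lower. The part of these markers in the differences was not tested. By its brighter probe set Cyp7a1 was 12.0-fold lower in mutants (-3.59 ± 0.56) and 4.42-fold lower in the antibiotic group (-2.14 ± 0.56), beside 5.54-fold in treated wild type. Its dimmer probe set gave at least 20.7-fold in mutants and 6.79-fold in the antibiotic group. Slco1a1 was 11.9-fold lower in mutants (-3.57 ± 0.66) and at least 132-fold lower in the antibiotic group (-7.15 ± 0.66) by its brighter probe set. The dimmer one gave 18.6-fold and at least 34.5-fold. Cyp7b1 was 3.55-fold and 9.60-fold lower by its brighter probe set. The span for Slco1a1 was the widest of the 10 genes.

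Nr0b2 was the gene that was higher, by 1.11 ± 0.39 in mutants (adjusted p = 0.0278) and 1.95 ± 0.39 in the antibiotic group (adjusted p = 0.000669). The mutant call of Nr0b2 was lost without array 1 (1.11, adjusted p = 0.0628), 2 (0.77, adjusted p = 0.147), 9 (0.99, adjusted p = 0.0666) or 10 (1.09, adjusted p = 0.0512), and after centring or quantile normalisation. Abcc2 did not pass in either, with -0.25 ± 0.12 in the antibiotic group (adjusted p = 0.0817), which passed when each array was centred on its median (-0.41, adjusted p = 0.00912).

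In order of mean level, Cyp7b1 ran from untreated (13.81) over treated wild type (12.16) and mutant (11.99), which did not differ beyond their spread, to the antibiotic group (10.55). Slco1a1 ran from untreated (12.06) over mutant (8.49) and treated wild type (7.26) to the antibiotic group (4.90). Mutant and treated wild type overlapped and were not called different, and by the dimmer probe set their means were 4.995 and 4.897. Cyp7a1 ran from untreated (11.45) over the antibiotic group (9.31) and treated wild type (8.98) to mutant (7.86), and the last 3 overlapped. Nr0b2 ran from the antibiotic group (8.88) over mutant (8.03) to untreated (6.93) and treated wild type (6.58), the last pair overlapping. Cyp8b1, Cyp27a1, Baat, Slc10a1 and Abcb11 had a high untreated group and 3 lower groups among which no pair was called. For Cyp8b1 the difference between mutant and treated wild type was called under some alternatives, as given above.

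Cyp7a1, Cyp7b1, Baat, Slc10a1 and Slco1a1 were each read by a pair of tested probe sets, and the plot of paired probe sets shows how far these gave the same values. Baat and Cyp7b1 lay close to the line of equality in the 6 comparisons, and Slc10a1 was farther from it, with -1.80 and -2.38 in mutant against untreated liver. The largest gaps were in Slco1a1 and Cyp7a1, whose dimmer probe sets reached values under 4 in the antibiotic group and in the mutants respectively. The gap of Slco1a1 in mutant against treated wild type (1.22 and 0.10) arose with no array of either group under 4.

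**Figure D3:**
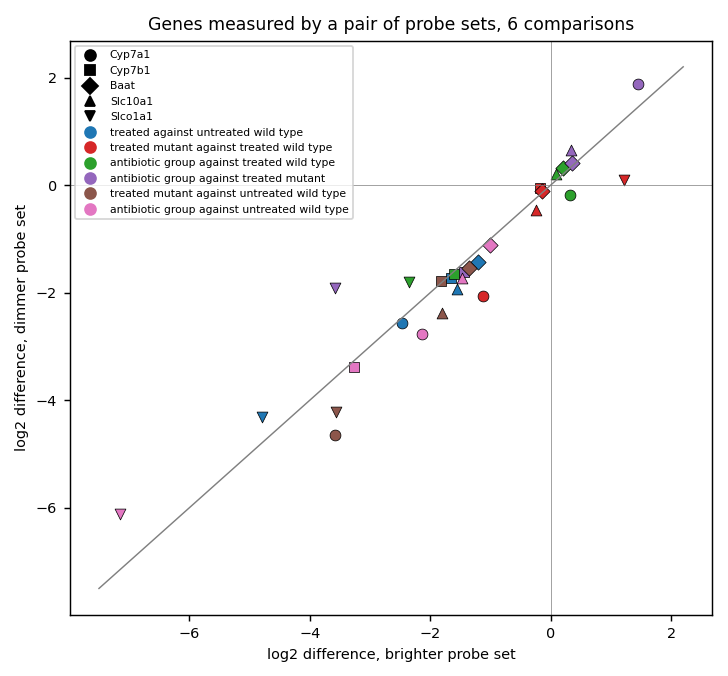
Log2 difference by the brighter (horizontal) and dimmer (vertical) probe set of Cyp7a1, Cyp7b1, Baat, Slc10a1 and Slco1a1, 1 point per gene and comparison, with the line of equality. Slco1a1 in antibiotic against mutant liver (-3.58 and -1.91) and Cyp7a1 in mutant against treated wild type (-1.12 and -2.07) lie off the line.

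The wider pathway held 41 further genes on the array, of which 38 passed the filter. Fgf15 lay at 1.81 to 2.49 on all arrays, as did Slc51a at 2.21 to 2.68, and Ch25h reached 4.50 at most. In treated against untreated wild type 26 of the 38 were lower and 4 higher (all genes 26.3% and 35.5%), with a median of -0.54. Among the higher genes Slc51b lay near background, with means of 3.90 in treated and 3.23 in untreated wild type. It lost its call in 10 of 26 alternatives. Of 12 further synthesis genes 10 fell, among them Cyp46a1, which hydroxylates cholesterol (-2.93 ± 0.37), Akr1d1, the reductase of the sterol ring (-1.40 ± 0.28), and Cyp2c70, which makes muricholic acids in mice (-1.06 ± 0.21). Acox2, a peroxisomal side-chain oxidase, rose by 0.59 ± 0.13.

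Slc27a5, which activates bile acids for the conjugation done by Baat, fell by 2.10 ± 0.18 on the log2 scale. The uptake carriers Slco1b2 (-2.34 ± 0.17) and Slco2b1 (-2.26 ± 0.24) fell, while Slco1a4, a close relative of Slco1a1, showed -0.30 ± 0.60 (adjusted p = 0.688). On the canalicular side Abcg8, of the sterol export pair, fell at least 5.62-fold (-2.52 ± 0.36), and the multidrug exporter Abcb1a rose (1.05 ± 0.22). The mean of Abcg8 in treated wild type was 4.36, with 1 array under 4, and its later comparisons with treated wild type use the same arrays. On the basolateral side the efflux gene Abcc4 rose (1.35 ± 0.43, adjusted p = 0.0134), a call lost without array 1 (1.20, adjusted p = 0.0535). The mean of Abcc4 in untreated liver was 4.06, with 1 array under 4. Of 12 regulators 8 fell, with Nr1i3, the receptor CAR, falling 4.01-fold, the corepressor Mafg at -1.68 ± 0.19, and Klb, the coreceptor for Fgf15, at -1.46 ± 0.32. Some falls were less firm: Hnf4a (-0.28 ± 0.10) lost its call in 8 of 27 alternatives, and the canalicular gene Abcb4 (-0.51 ± 0.20) in 13 of 27. Nr1h4 itself, encoding FXR, did not pass (-0.46 ± 0.21, adjusted p = 0.0691).

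In mutant against treated wild type, 9 of the 38 were higher and 2 lower (all genes 12.6% and 17.3%; median 0.17). Cyp46a1 (2.41 ± 0.34), Cyp39a1, an oxysterol hydroxylase (1.79 ± 0.43), Abcg8 (2.06 ± 0.34) and Abcc4 (2.11 ± 0.39) rose most. The regulators Fgfr4, the receptor for Fgf15 (0.77 ± 0.17), Mafg (0.58 ± 0.17) and Rxra (0.49 ± 0.09) were higher by smaller amounts, and Rxra was not called by the mean of its probe sets (0.27, adjusted p = 0.095). Cyp2c70 (-0.60 ± 0.19) and the exporter Abcc3 (-0.51 ± 0.17) were lower. The call of Mafg was lost without array 5 (0.56, adjusted p = 0.0524) or 8 (0.38, adjusted p = 0.0523), that of Abcc3 without array 5, 7, 8, 9 or 11 (adjusted p up to 0.106) and that of Cyp2c70 without array 4, 6, 7, 8, 10 or 11 (adjusted p up to 0.0817). When arrays were centred on their medians, Abcc3 (-0.44, adjusted p = 0.0562) and Cyp2c70 (-0.53, adjusted p = 0.0502) were not called either. The mean levels of Cyp46a1 and Abcg8 stood nearer to untreated liver in the mutants than in treated wild type, and those of Cyp39a1, Abcc4, Cyp7a1 and Cyp8b1 stood farther from it.

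In the antibiotic group, 8 of the 38 were higher than in treated wild type and none lower (all genes 4.58% and 8.42%; median 0.18). Cyp46a1 (1.57 ± 0.34), Abcg8 (1.42 ± 0.34), Nr1i2, the receptor PXR (1.32 ± 0.26), and Nr1i3 (1.13 ± 0.33) rose by more than the other 4, although Nr1i3 was not called without array 4, 5, 6, 7, 14 or 15 (adjusted p up to 0.108). Of the other 4, Nr1h3 lost its call in 14 of 27 alternatives, Acot8 and Abcg5 in 9 each, and Rxra in 3. Across the alternatives the difference of Rxra (0.41 ± 0.09) went down to 0.16 and its adjusted p up to 0.395. Nr1h4 did not pass here (0.14 ± 0.19, adjusted p = 0.683) nor in the mutants (-0.03 ± 0.19, adjusted p = 0.923).

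**Figure D4:**
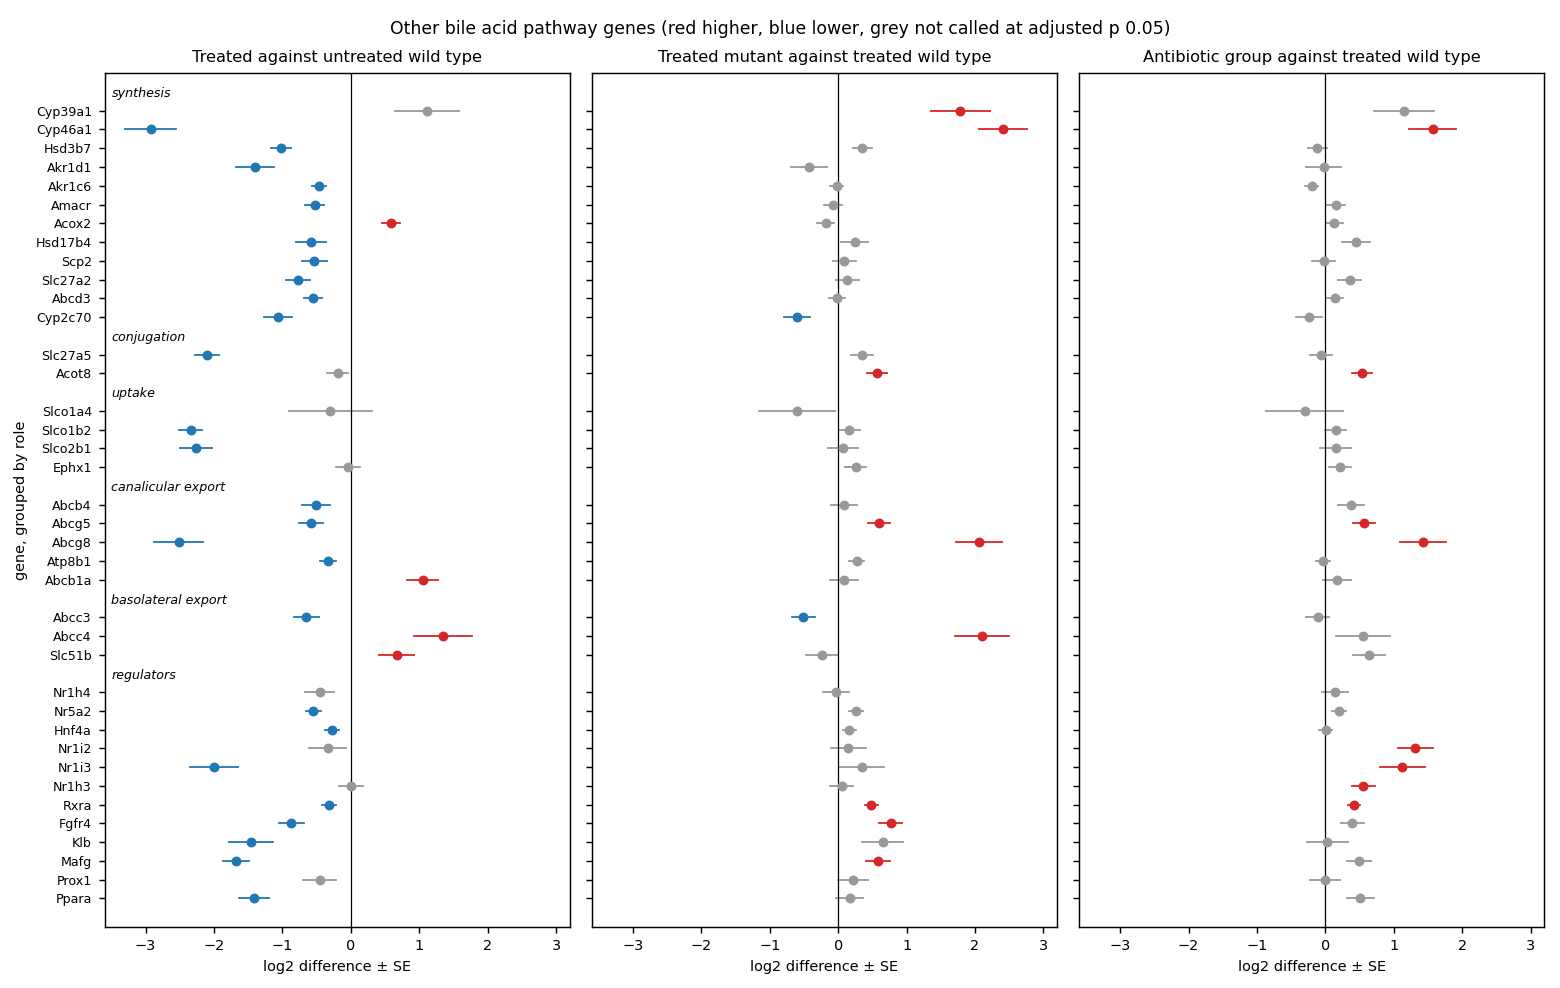
Log2 difference with its SE (horizontal axis) for 38 further bile acid pathway genes grouped by role, in 3 comparisons, coloured by call. Most genes lie left of 0 in the first panel (26 lower, 4 higher), and the called genes lie mostly to the right in the middle panel (9 higher, 2 lower) and in the right panel (8 higher).

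The genes whose levels followed a member most closely over the 15 arrays were found by Pearson's r over all 9482 genes. For Cyp7a1 they were Rmdn1 (r = 0.95), Apol7a (0.94) and Sh3bp5 (0.93). For Slco1a1 they were Ces1f, a liver carboxylesterase (r = 0.98), C9, a complement component (0.97), and Tor1aip2 (0.97). The 15 arrays share the 4 groups, so these values mostly follow the group means. Ces1f stood on average at 13.15 in untreated, 11.81 in treated wild-type, 12.45 in mutant and 11.40 in antibiotic liver, the same order of groups as Slco1a1, over a much narrower span.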

How the data were processed

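Liver RNA of 15 samples was hybridised to Affymetrix whole-genome mouse arrays. The deposited values are log2 probe set summaries. They were made by the authors with GCRMA, which corrects background by probe sequence and normalises between arrays, per the submitters' processing notes; version and settings are not given in the sources used here. GCRMA equalises the arrays, so a shift shared by most genes would be reduced, and low values carry little signal over background.

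Probe sets were named through GEO's platform annotation. Of 45101 probe sets, 34945 carried 1 symbol, 932 several, 9160 none and 64 were controls; none with several symbols named one of the 10 genes. Probe sets reaching 4 on at least 3 arrays were tested (15541 probe sets, 9482 genes), 34.6% to 36.7% of all probe sets being at or above 4 per array. The number of arrays limits precision, and no molecule counts exist. limma 3.58.1 in R 4.3.3 fitted 4 group means to all 15 arrays (11 residual and 3.58 prior degrees of freedom). Adjusted p-values are Benjamini-Hochberg over all probe sets within each of 6 comparisons, called under 0.05. All probe sets of the 10 genes are reported, and each gene is counted by its brightest. Every tested pathway gene could be named, together with the 3 genes most correlated with Cyp7a1 and with Slco1a1. A fold written "at least" was computed after raising single arrays under 4 in the lower group to that level.

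The fit was tested on simulated data. Alternatives covered centring, quantile normalisation, filters, probe set choice, array weights, a trended prior, 2-group fits, thresholds and leaving out each array. No value was missing (0) and 0 columns were unused. A label text giving other ages and a liver resection contradicts the remaining labels and was not used. The labels name no batch. The 10 genes and all lists were chosen with earlier results of these data known. Other steps used pandas 2.3.3 under Python 3.11.15, with matplotlib 3.10.9 for plotting.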

Additional observations from a re-analysis of the deposited data

Results flagged for a closer look

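Within groups of 4 arrays, 45 sets of values were examined for a sample far from the others, a rule that chance meets in about 1 in 20 sets, and 3 were found. All 3 concerned the dimmer of a pair of probe sets. For Baat (1419001_at), array 4 lay at 5.74 in treated wild type, the others at 6.18 to 6.23. In the antibiotic group array 12 lay at 5.57 for this probe set, the others at 6.64 to 6.75, and without array 12 it was higher than in treated wild type (0.60, adjusted p = 0.0358) and than in the mutants (0.70, adjusted p = 0.0124). For Slco1a1 (1449844_at), array 6 lay at 6.33 in treated wild type, the others at 4.36 to 4.51, and array 6 was also the highest of its group by the brighter probe set, at 8.68.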

How the results depend on the processing

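Among the 10 genes, 8 were called in treated against untreated wild type (8 to 9 under other settings, 8 without any single array). Mutant against treated wild type gave 1, but 2 when probe sets were averaged, 4 with array weights and 1 to 3 without single arrays. Antibiotic against treated wild type gave 4, but 2 at an adjusted p under 0.01 and 3 to 4 without single arrays. Without single arrays, antibiotic against mutant gave 2 to 4 (3 with all arrays), mutant against untreated 8 to 9 (9) and antibiotic against untreated 9 to 10 (9). Centring moved the median of all genes in treated against untreated from 0.10 to -0.13, and the share of called genes that were higher from 57.4% to 42.1% (48.4% by quantile normalisation). In mutant against treated wild type that share moved from 42.1% to 54.8% (50.1%), in antibiotic against treated wild type from 35.2% to 51.4% (45.9%), and against untreated from 60.3% to 45.7% for mutants and from 58.6% to 46.1% for the antibiotic group. The falls of the 8 genes were called under both scalings.

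Over all genes, calls in antibiotic against treated wild type numbered 1232, and 817 with only those groups fitted, 370 at 0.01, 404 at 2-fold, 743 without array 12 and 750 without array 7. Antibiotic against mutant gave 1073, and 577, 393 and 354 in that order, with 652 to 691 without array 8, 9 or 14. Mutant against treated wild type gave 2827, with 1612 at 0.01 and 930 at 2-fold. At 2-fold the untreated comparisons gave 2663 of 5860, 1913 of 5047 and 2305 of 5510.

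The differences that turned sign were not called on either side, except that of Hnf4a, which by its brightest probe set was lower in treated wild type and in the antibiotic group than in untreated wild type. Centred, mutant against treated wild type gave 0.025 for Cyp7b1 (1421075_s_at), 0.0014 for Abcc2 and 0.041 for Nr1h4. Averaged probe sets of Hnf4a gave 0.088 in treated and 0.17 in antibiotic against untreated wild type. With array weights, antibiotic against treated wild type gave -0.044 for Slc10a1 and -0.18 for Cyp7a1. Leaving out single arrays, mutant against treated wild type spanned -0.22 to 0.0082 for Baat (1419001_at), -0.28 to 0.11 for Cyp7b1 (1421075_s_at), -0.42 to 0.58 for Slco1a1 (1449844_at) and -0.21 to 0.062 for Nr1h4. Antibiotic against treated wild type spanned -0.054 to 0.25 for Cyp27a1, -0.49 to 0.058 for Cyp7a1 (1422100_at), -0.062 to 0.22 and -0.075 to 0.45 for the probe sets of Slc10a1, and -0.041 to 0.25 for Nr1h4. Antibiotic against mutant spanned -0.15 to 1.02 for Cyp8b1 and -0.22 to 0.099 for Abcb11. The causes were not tested.

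No paired analysis was possible because the arrays are numbered 1 to 15 across the groups and share no numbers. Groups of 3 and 4 arrays leave wide intervals for the scattered genes Cyp7a1, Cyp8b1 and Slco1a1, and dim probe sets under 4 carry little signal over background.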
